A study of Homo sapiens and Mus musculus with 8 samples.

Results

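The genes of store-operated Ca2+ entry were followed through 5 deposited comparisons of melanoma cells. The 6 genes were chosen by their role: the channel subunits Orai1, Orai2 and Orai3, the sensors Stim1 and Stim2, and the regulator Saraf. They were found by gene symbol, ignoring letter case. Of the 6, 4 had a row in at least 1 table, among 15966 symbols in the 3 mouse tables, and 3 of them (Orai2, Stim2 and Saraf) had a row in all 3 mouse tables. Stim1 had a row at 5 weeks of UV and in the clone. Orai1 and Orai3 had no row in any of the 5 tables, and no member had a row in the WM983 or UACC257 tables, which hold the same 420 symbols.

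Store-operated entry refills the Ca2+ stores of the endoplasmic reticulum. STIM proteins sense a fall of Ca2+ in its lumen, gather where it meets the plasma membrane and open the ORAI channels there, and SARAF limits the entry by promoting its slow inactivation. The pathway feeds calcineurin and NFAT transcription factors, and in pigment cells it has been studied for its part in melanin synthesis and in melanoma invasion.

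The 8 RNA-seq samples came from 3 melanoma lines, 1 sample in each of 8 groups. B16N is a mouse line, with an untreated wild-type control labelled day 0, wild-type cells exposed to UV for 2 weeks or for 5 weeks, and a day 0 sample of clone O1C44 overexpressing Orai1. The clone came from cells that received Orai1-WT-CFP, a fluorescently tagged wild-type Orai1, and went through G418 selection and fluorescence sorting before growth as single clones. It is 1 clone, and the labels name no clone that went through selection without Orai1, so Orai1, selection and clonal growth cannot be told apart, nor can UV and weeks in culture. WM983 and UACC257 are human lines, each with a wild-type untreated control at day 0 and a wild-type UV sample whose time label is week 2, although its title reads UV3. The comparisons address how UV exposure and a forced Ca2+ entry channel change melanoma cells.

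The tables hold a log2 change, a test statistic and a p-value for each gene, and no levels, so depth is unknown, and levels cannot be compared between genes or samples. Changes in B16N are given here as treated against control. The authors' B16N values run as control over treated, so their sign was turned wherever a change is credited to their deposited tables. Values for the human lines keep the deposited sign. The standard error (SE) is the change divided by the statistic, the 95% interval is the normal one from that SE, and a gene was called at a Benjamini-Hochberg adjusted p under 0.05 over its whole table. With 1 sample a group no difference has a replicate check, and each p-value compares libraries and not conditions. The 3 mouse changes rest on the same control library. Of the pigment cell markers Tyr, Dct, Tyrp1, Pmel, Mlana, Mitf and Sox10, all 7 had a row in each mouse table, 6 of them with values of their own, while keratinocyte, fibroblast and endothelial markers had no row with values of their own.

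Among the pore subunits, Orai2 was higher after 5 weeks of UV and in the Orai1 clone, and was not called after 2 weeks. Orai2 forms Ca2+ channels alone or together with Orai1. In the authors' deposited table for 2 weeks its log2 change was -0.044 (SE 0.13), which is 0.970 of control with a 95% interval from 0.816 to 1.15 (adjusted p = 0.959). At 5 weeks it rose by a log2 change of 0.49 (SE 0.15) in the authors' deposited table, 1.40-fold with an interval from 1.14 to 1.73 (adjusted p = 0.0330). In the clone it rose by 0.56 (SE 0.13) in the authors' deposited table, 1.48-fold with an interval from 1.24 to 1.76 (adjusted p = 1.39e-04). The intervals at 5 weeks and in the clone lie above 0, and the one at 2 weeks spans it.

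**Figure D1:**
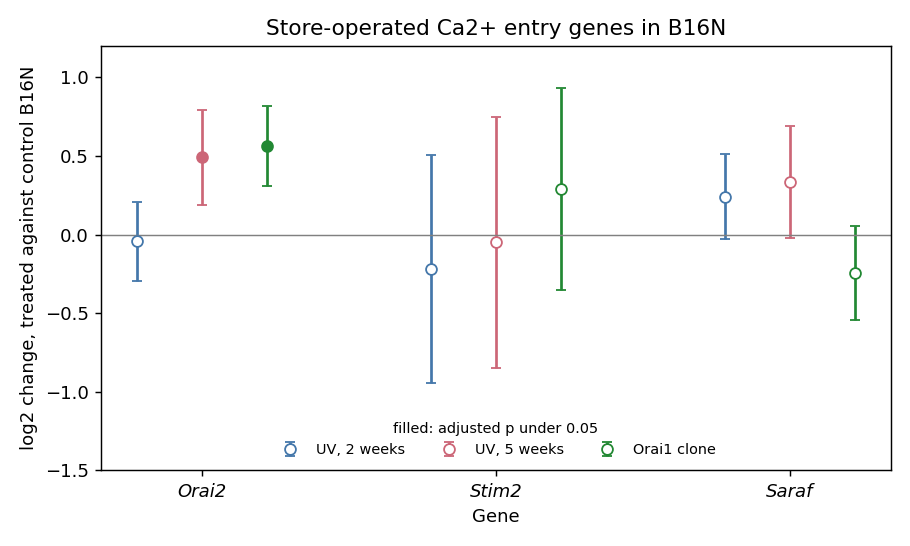
Log2 change of Orai2, Stim2 and Saraf in B16N after 2 weeks of UV, 5 weeks of UV and in the Orai1 clone, each against the same control (points, with 95% intervals from the SE as bars; filled points passed an adjusted p of 0.05). Orai2 at 5 weeks (0.49) and in the clone (0.56) are the filled points, and the intervals of Stim2 are the widest of the 3 genes.

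Called members are read against the share of all genes called. At 2 weeks none of 3 members with a row was called (0 at an unadjusted p under 0.05 as well), where 7.67% of 14648 genes were. At 5 weeks 1 of 4 was called, where 4.78% of 14821 genes were, 3.07% higher. In the clone 1 of 4 was called, where 22.0% of 15041 genes were, 10.3% higher, so the clone's count is near the share for all genes. By p-value Orai2 ranked 619 of 14821 at 5 weeks, among 708 called genes, and 1307 of 15041 in the clone, among 3305. No member passed with a fold minimum of 1.5 or of 2, and with the latter 0.348%, 1.81% and 6.79% of genes passed at 2 weeks, at 5 weeks and in the clone.

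The 5-week call of Orai2 lies close to the threshold. At its SE, the smallest log2 change that would have passed there was 0.47, against 0.49 measured. With p-values from the authors' deposited tables it was lost at an adjusted p under 0.01 and under the Benjamini-Yekutieli adjustment (adjusted p = 0.336), while the clone's call was kept under both (Benjamini-Yekutieli adjusted p = 0.00142).

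The treated samples were also set against each other gene by gene, from the changes and SEs of the authors' deposited tables, so that the control value cancels. Orai2 was higher in the clone than after 2 weeks of UV, with a difference of 0.61 on the log2 scale (SE 0.18, 1.52-fold) and an adjusted p = 0.01003 by a normal test on the authors' deposited tables, where 11.7% of 14105 genes passed. From the authors' deposited tables, this call was lost under the Benjamini-Yekutieli adjustment (adjusted p = 0.102) and at an adjusted p under 0.01. The difference between 5 and 2 weeks in the authors' deposited tables was 0.53 (SE 0.20, interval 0.14 to 0.93) and did not pass (adjusted p = 0.136, where 3.33% of 14083 genes did), so a change of Orai2 between the UV times was not shown. Between the clone and 5 weeks the difference was 0.074 (SE 0.20) by the authors' deposited tables, with an interval from -0.32 to 0.47 (adjusted p = 0.9997), and 5.35% of 14291 genes passed. Those data leave room for a difference in either direction.

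**Figure D2:**
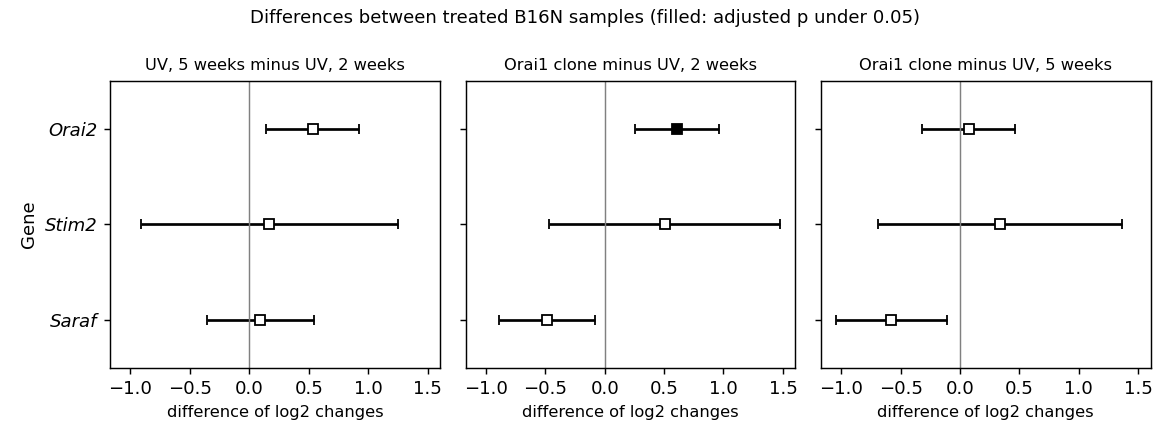
Difference of log2 changes between treated B16N samples for Orai2, Stim2 and Saraf (squares, with 95% intervals as bars; filled squares passed an adjusted p of 0.05). The filled square is Orai2 in the clone against 2 weeks of UV, at 0.61.

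Orai1 and Orai3, the other pore subunits, have no value here. The clone's label therefore could not be checked on Orai1 itself. A missing row does not show that a gene was silent: Actb and Calr, chosen after the values were seen as genes that most cells express strongly, had no row in any of the 3 mouse tables either.

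The sensors gave little. Stim2, which responds to small falls of store Ca2+ and holds resting Ca2+, was not called in any comparison. By the authors' deposited tables, its log2 change was -0.22 (SE 0.37) at 2 weeks, -0.050 (SE 0.41) at 5 weeks and 0.29 (SE 0.33) in the clone. The clone's interval ran from -0.36 to 0.93 and that at 2 weeks from -0.94 to 0.51. At these SEs a log2 change under 1.07, 1.24 and 0.84 would not have passed, so a change of Stim2 as large as that of Orai2 was not detectable here.

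Stim1, the main sensor of store depletion in most cells, had values that cannot be read as a measurement of its own. In the authors' deposited table for 5 weeks its log2 change of 0.97 was shared, to every digit of change and statistic, with 699 other symbols. In that for the clone its value of 0.40 was shared with 743 others. Both stand at the largest SE of their tables, 4.08. Their intervals, from -7.03 to 8.97 and from -7.59 to 8.40, span any plausible change, and no direction is read from them. Orai2, Stim2 and Saraf shared their values with no other symbol in any table.

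Saraf, the brake on store-operated entry, had values above 0 after UV and below 0 in the clone, none of them called. Its log2 change in the authors' deposited tables was 0.24 (SE 0.14, adjusted p = 0.434) at 2 weeks and 0.33 (SE 0.18, adjusted p = 0.441) at 5 weeks. In the authors' deposited table for the clone it was -0.24 (SE 0.15, adjusted p = 0.305). Set against each other from the authors' deposited tables, the clone lay below 2 weeks by a difference of -0.49 (SE 0.21, p = 0.0188, adjusted p = 0.124) and below 5 weeks by -0.58 (SE 0.24, p = 0.0149, adjusted p = 0.180). Neither difference passed when adjusted over all genes, although both 95% intervals exclude 0. Both UV times differed by 0.092 (SE 0.23).

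The precision differed between members. The SE of Orai2 was smaller than that of most genes, at percentiles 18.0, 11.5 and 14.1 of its table for 2 weeks, 5 weeks and the clone. Saraf stood at percentiles 21.6, 20.9 and 22.7, and Stim2 near the middle at 54.8, 52.1 and 50.4. The smaller the SE, the smaller the change that can be called, so moderate changes could be called for Orai2 and Saraf and not for Stim2.

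**Figure D3:**
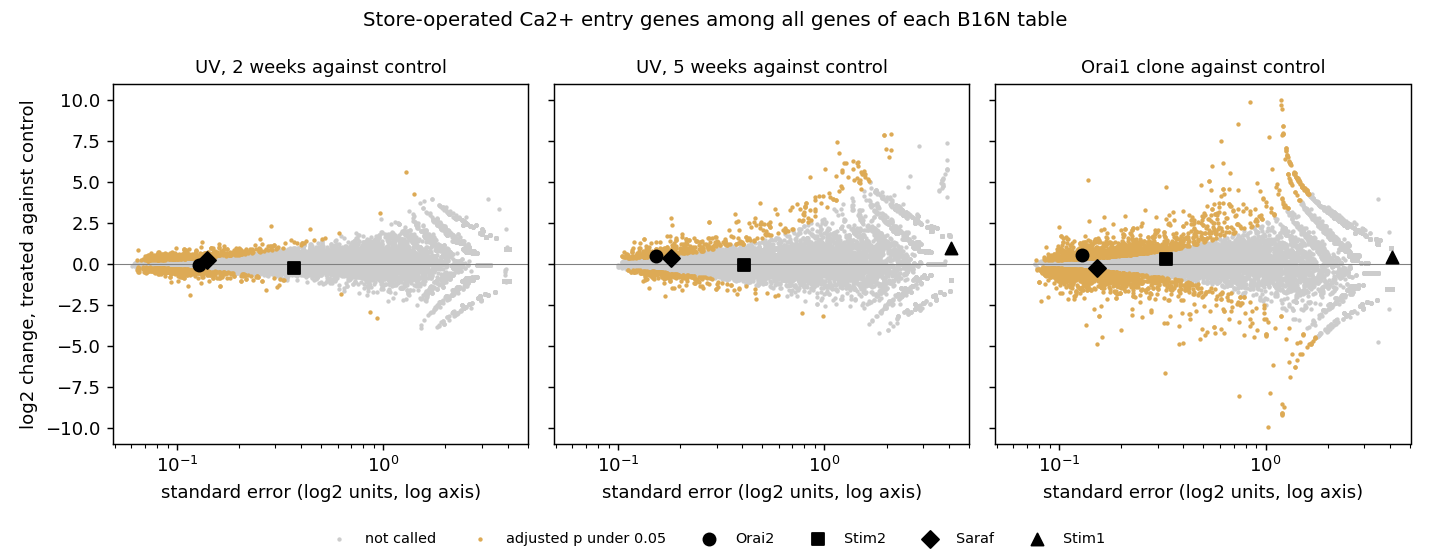
Log2 change against SE (log axis) for every gene of the 3 B16N tables, with called genes in orange and the members in black. Orai2 lies among called genes at 5 weeks and in the clone, Stim2 and Saraf do not, and Stim1 stands at the right end with an SE of 4.08.

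By the likeness of its 3 changes, the genes nearest to Orai2 were Dazap2 (Euclidean distance 0.078 in log2 units), the melanocyte antigen gene Mlana (0.091) and the presenilin gene Psen2 (0.098). They were taken from 3179 genes with SE of at most 0.2 and values of their own in the 3 comparisons, which share a control. The distances are smaller than the SEs of the Orai2 changes (0.13, 0.15 and 0.13), so which gene is nearest is not resolved. Dazap2 was called in the clone and not at 5 weeks, and Psen2 was called in both. Mlana had log2 changes of 0.0077, 0.53 and 0.50 at 2 weeks, 5 weeks and in the clone in the authors' deposited tables, and was called at 5 weeks and in the clone. The other pigment cell markers did not share that pattern. Tyr rose by 0.95 and 1.32 at 2 and 5 weeks and stood at 0.12 (not called) in the clone in the authors' deposited tables, and Tyrp1 rose by 0.39 and 0.36 and stood at 0.18 (not called). Dct rose by 0.72 and 0.85 and fell in the clone (-0.61), and Pmel rose in all 3, by 0.70, 0.75 and 0.92. In all, 4 of 6 pigment markers were higher at 2 weeks, where Orai2 was not called, 5 of 6 at 5 weeks, and 2 of 6 higher and 1 lower in the clone. Over all genes with values of their own, 3.71% were higher at 2 weeks, 3.53% at 5 weeks, and 12.0% higher and 13.9% lower in the clone. Mitf was not called in any of the 3. Of the leukocyte markers, Lyz2 was called in the same comparisons as Orai2 but with far larger changes. Its SEs, all above 0.2, kept Lyz2 out of the genes compared by distance. It stood at 0.38 (SE 0.94, not called), 3.47 (SE 0.70) and 2.78 (SE 0.64) in the authors' deposited tables. Ptprc, Cd3e and Cd68 had no values of their own, and Adgre1 had no row. Cd68, which shared its values with Cby1, was not called in any of the 3 comparisons. The part of such cells, or of the pigment program, in the Orai2 values was not tested.

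The other genes of the pathway were read from 7 lists of 98 genes in all, of which 74 to 77 had a row in each mouse table. Of these, 25 to 29 shared their exact values with another symbol and were set aside, since the value cannot be assigned: the endoplasmic reticulum pump gene Atp2a2 shared with Tmed6, and the annexin gene Anxa6 with Mcmbp. Such pairs of unrelated symbols also occur among precisely measured genes: of rows with an SE of at most 0.5, 14.5%, 14.4% and 14.4% at 2 weeks, 5 weeks and in the clone shared both values with exactly 1 other symbol. Together with the missing rows of Actb and Calr, this leaves the pairing of symbols and values in the deposited tables in doubt. Whether a symbol with values of its own, Orai2 included, stands beside the right values could not be tested, and each value here is given under the symbol as deposited. Over the genes with values of their own, 3 of 49 were higher and 2 lower at 2 weeks, where 3.71% and 5.28% of all such genes were. At 5 weeks 2 of 48 were higher and 3 lower, where 3.53% and 1.98% were. In the clone 1 of 48 was higher and 14 lower (29.2%), where 12.0% and 13.9% of all such genes were. Genes of larger SE are called less readily, and shares among genes of like SE were not taken. Of the symbols set aside, Ppp3r1 (1.22), Tmco1 (0.64) and Sdf4 (0.44) passed as higher in the clone by the authors' deposited table. Anxa6 (-1.59) and Atp2a2 (-0.69) passed as lower there. After UV, Canx passed as higher at 5 weeks (0.50) and Anxa6 as lower at 2 weeks (-0.55). The clone's count of 14 lower fell to 6 with a fold minimum of 1.5 or under the Benjamini-Yekutieli adjustment and to 4 with a fold minimum of 2. Its count of 1 higher went to 4 with symbols of shared values left out before adjustment, to 3 with an SE of at most 0.5 or the median change set to 0, and to 0 with a fold minimum of 2, at an adjusted p under 0.01 or under the Benjamini-Yekutieli adjustment.

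Regulators of STIM and ORAI went different ways. Of 14 with values of their own at 2 weeks, 2 rose: Pdia3, an oxidoreductase that acts on STIM1 (0.39, SE 0.081), and Ormdl3, a regulator of sphingolipid synthesis that affects Ca2+ handling (0.33, SE 0.095), in the authors' deposited table. At 5 weeks 1 of 13 fell, Mapre1, whose product carries STIM1 on growing microtubule ends (-0.60, SE 0.17, by the authors' deposited table). The calls of Ormdl3 at 2 weeks and of Mapre1 at 5 weeks were lost at an adjusted p under 0.01 and under the Benjamini-Yekutieli adjustment. In the clone Slc35g1, a STIM1 partner, rose (0.92, SE 0.33), while Ormdl3 (-0.35), the ubiquitin-like protein gene Ubqln1 (-0.31) and the cargo receptor gene Surf4 (-0.27) fell in the authors' deposited table. None of these 4 calls in the clone was kept under the Benjamini-Yekutieli adjustment. Stimate, which promotes STIM1 activation, was not called in any comparison. The list's medians of -0.12, -0.083 and -0.16 compare with 0.020, 0.0069 and 0.033 over all genes with values of their own. Among those genes 3.71% were higher at 2 weeks, 1.98% lower at 5 weeks, and 12.0% higher and 13.9% lower in the clone.

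Among store release genes the inositol trisphosphate receptor gene Itpr2 moved most. It stood at -0.052 (SE 0.15) at 2 weeks, rose by 1.80 (SE 0.20) at 5 weeks and fell in the clone (-3.08, SE 0.23) in the authors' deposited tables, so Itpr2 went in opposite directions where Orai2 rose in both. Itprip, whose product binds that receptor, fell at 5 weeks (-0.73, SE 0.18). Ahcyl1, which encodes an inhibitor of the receptor, fell at 2 weeks (-0.39, SE 0.082) and in the clone (-0.32, SE 0.098), and the endolysosomal channel gene Tpcn1 fell at 2 weeks (-0.38, SE 0.12), all by the authors' deposited tables. In total, 2 of 7 were lower at 2 weeks, 1 of 8 higher and 1 lower at 5 weeks, and 2 of 7 lower in the clone, with medians of -0.052, -0.077 and -0.30. Over all genes with values of their own, 5.28% were lower at 2 weeks, 3.53% higher and 1.98% lower at 5 weeks, and 13.9% lower in the clone. Under the Benjamini-Yekutieli adjustment Tpcn1 at 2 weeks and Ahcyl1 in the clone were lost, which left 1 lower at each, and Tpcn1 was also lost at an adjusted p under 0.01.

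Of pumps and exchangers, 4 had values of their own, and Atp2c1, the Golgi Ca2+ and Mn2+ pump, was the single call, lower in the clone (-0.63, SE 0.16, in the authors' deposited table). Over all genes with values of their own, 13.9% were lower in the clone. The list's medians were -0.20, 0.28 and 0.070. None of the TRPC channels (2 with values of their own, medians 0.25, 0.22 and 0.19) or the phospholipase C genes (5, 4 and 5, medians 0.13, -0.20 and -0.23) was called. Their SEs, from 0.53 to 0.89 for TRPC channels and from 0.22 to 1.82 for phospholipase C, were mostly larger than those of Orai2 and Saraf.

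Downstream, calcineurin and NFAT genes were called lower in the clone in 4 of 10 cases, where 13.9% of all genes with values of their own were lower, with a median of -0.095. Nfatc2 fell by far the most (-6.66, SE 0.33), followed by Dyrk1a, a kinase that sends NFAT out of the nucleus (-1.37, SE 0.19), Nfatc1 (-1.36, SE 0.42) and the calcineurin regulator gene Rcan1 (-0.38, SE 0.11) in the authors' deposited table. Nfatc1 and Rcan1 were lost under the Benjamini-Yekutieli adjustment, which left 2. None of the 10 was called higher. Ppp3r1, a calcineurin subunit gene set aside for sharing its values with 2300009A05Rik, was called higher in the authors' deposited table (1.22, SE 0.14). Cabin1, a calcineurin inhibitor gene (0.60, SE 0.24), lay just short of the threshold. It passed under 3 alternatives: an SE of at most 0.5, symbols of shared values left out before adjustment, and the median change set to 0. Nfat5 (1.42, SE 0.57) passed with symbols of shared values left out, both by the authors' deposited table. Dyrk1a also fell at 5 weeks (-0.92, SE 0.25), as the single call of 10 there, where 1.98% of all genes with values of their own were lower. That call was lost at an adjusted p under 0.01, under the Benjamini-Yekutieli adjustment and with a fold minimum of 2. None was called at 2 weeks, and the medians at 5 and 2 weeks were -0.10 and 0.043.

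Genes for Ca2+-binding proteins and chaperones of the endoplasmic reticulum had 4 of 7 members lower in the clone, against the same 13.9%, with a median of -0.24. These were the reticulocalbin gene Rcn1 (-0.65, SE 0.10), Pdia4 (-0.58, SE 0.095), the calumenin gene Calu (-0.44, SE 0.13) and Hspa5, the main luminal chaperone (-0.24, SE 0.089), in the authors' deposited table. Their SEs lie below the median SE of 0.32 over the clone's genes, so smaller changes could be called than for most genes. The share lower among genes of like SE was not taken. With the median change set to 0, Hspa5 no longer passed in the clone by the authors' deposited table (adjusted p = 0.0547). The count of 4 fell to 2 under the Benjamini-Yekutieli adjustment, without Calu and Hspa5, and to 1, Rcn1, with a fold minimum of 1.5. Rcn2 (0.36, SE 0.14) was not called, and passed as higher under the 3 alternatives named for Cabin1. By the authors' deposited tables the calls after UV were upward: Hspa5 at 2 weeks (0.43, SE 0.071) and Hsp90b1, another luminal chaperone gene, at 5 weeks (0.76, SE 0.13). The medians were 0.074 and 0.15, with 1 of 7 called at each time, and at 2 weeks Calu (0.35, SE 0.13) made it 2 with an SE of at most 0.5 or the median change set to 0. Over all genes with values of their own, 3.71% were higher at 2 weeks and 3.53% at 5 weeks.

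**Figure D4:**
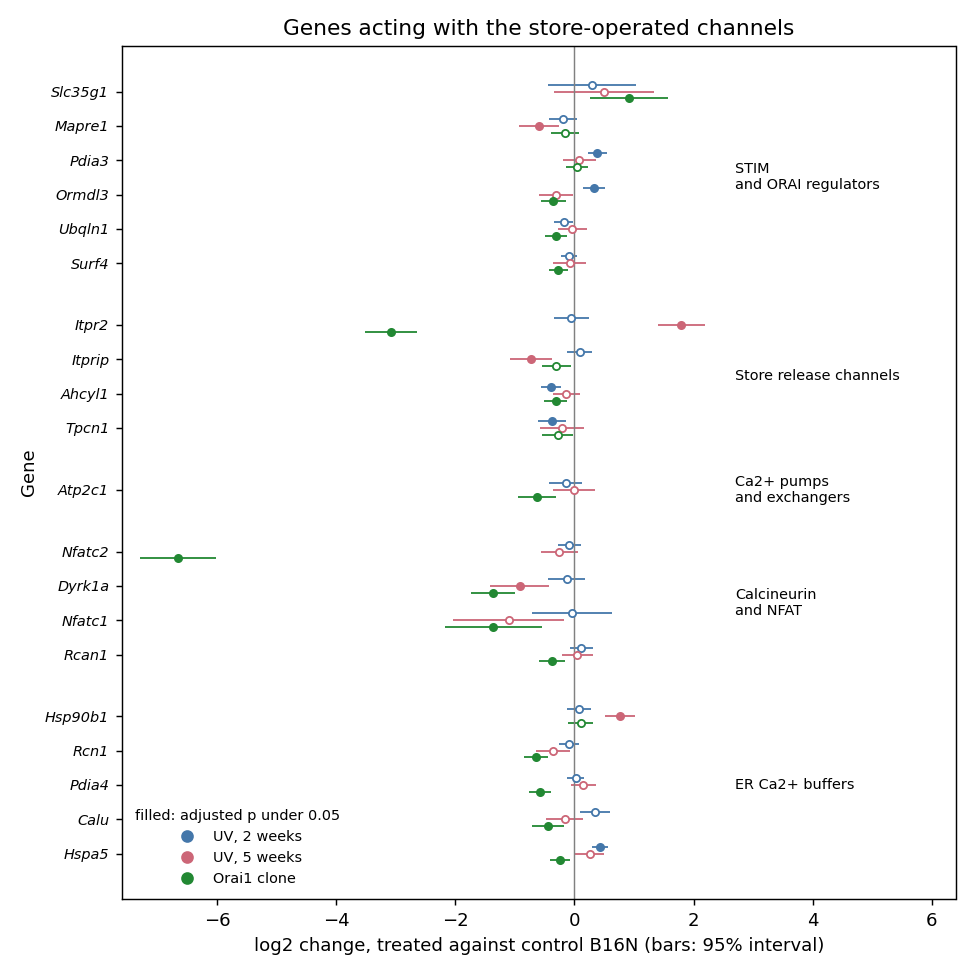
Log2 change against control of the 20 pathway genes with the largest called changes in the lists (at most 6 a list), in B16N after 2 weeks of UV, 5 weeks of UV and in the Orai1 clone (points, with 95% intervals as bars; filled points passed an adjusted p of 0.05). Itpr2 lies at 1.80 after 5 weeks and at -3.08 in the clone, and Nfatc2 at -6.66 in the clone.

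Of the pathway genes listed, 2 had a row for the human lines, and so did 2 pigment markers. TRPC1 had a deposited log2 fold change of 1.15 in WM983 (p = 5e-05) and -0.49 in UACC257 (p = 0.0337) in the authors' deposited tables. The phospholipase gene PLCG2 had 1.66 (p = 5e-05) and -0.26 (p = 0.169) in the authors' deposited tables. The pigment markers had the same signs: MLANA stood at 2.14 (p = 5e-05) in WM983 and -0.25 (p = 0.0726) in UACC257, and TYRP1 at 3.73 (p = 5e-05) and -0.22 (p = 0.187), in the authors' deposited tables. Which group is the numerator is not known for these tables, and the difference between the lines was not tested. Every WM983 value given here had the same p-value. How the 420 symbols held for both lines were chosen is not known. Whether that choice shaped the contrast between the lines was not tested.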

How the data were processed

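RNA-seq samples were grouped by their titles, 1 sample in each group. The authors deposited 5 tables of their own comparisons. Per the file headers, a deposited row gives for its gene a log2 fold change, a p-value and a test statistic, here called a score. The submitters' processing notes name GRCm38 and no other build, and the aligner, the counting method and the authors' test are not given in the sources used here. No sequence is printed, because the reference at hand was human and the members' values are from mouse.

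In the mouse tables the authors' log2 fold changes are control over treated: of 1357 symbols with a row in 1 mouse table alone, 1357 were negative and 0 positive. Symbols lower in the treated sample at the largest SE, 337, 451 and 299 in the tables for 2 weeks, 5 weeks and the clone, all had a row in both other tables too. The sign was turned. A two-sided normal test of the deposited score gave back the p-value (largest gap 5.00e-08), so the change divided by the score gave the SE. Left out were 1 row with the symbol NA in every mouse table and 3 rows of the clone's table that lack a p-value. Benjamini-Hochberg adjustment ran over the remaining rows. Differences between treated samples used a normal test with both SEs added in squares, which counts the control's spread in both, adjusted over genes with a row in both tables, for 3 pairs. These steps were tested on simulated data.

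Members and lists were chosen with earlier results of these data known. Named genes were all members, up to 6 genes per list with the largest change among those called with values of their own, and the 3 genes nearest to a called member. Stimate, Lyz2, Actb, Calr, Cabin1, Nfat5, Rcn2 and the pigment markers with their values were named in addition, after their values were seen. So were the called symbols of shared values: Ppp3r1, Tmco1, Sdf4, Canx, Anxa6 and Atp2a2. Alternatives were fold minimums of 1.5 and 2, an adjusted p under 0.01, Benjamini-Yekutieli adjustment, an SE of at most 0.5, symbols with shared values left out, and the median change of genes of SE at most 0.3 set to 0. Python 3.11.15, numpy 2.4.6, pandas 2.3.3, scipy 1.17.1 and matplotlib 3.10.9 were used.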

Additional observations from a re-analysis of the deposited data

Results flagged for a closer look

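Of 20 pathway genes, named because they were called against control in some comparison, 4 had a UV change that differed between 5 and 2 weeks by the test of the difference, where 3.33% of 14083 genes did. The 20 were picked by changes that enter the same test, so the share over all genes is not a like yardstick and no excess is read. With p-values from the authors' deposited tables the count was 3 at an adjusted p under 0.01 (without Ormdl3), 2 under the Benjamini-Yekutieli adjustment (without Ormdl3 and Itprip) and 1 with a fold minimum of 2 (Itpr2). In the authors' deposited tables Itpr2 was higher at 5 weeks by 1.85 on the log2 scale (SE 0.25, adjusted p = 1.99e-10), and Hsp90b1 by 0.69 (SE 0.16, adjusted p = 0.00204). By the authors' deposited tables Itprip was lower at 5 weeks, with a difference of -0.82 (SE 0.21, adjusted p = 0.00550), and so was Ormdl3, with -0.65 (SE 0.17, adjusted p = 0.0107). None of the 3 store-operated entry genes with a row at both times passed that test.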

How the results depend on the processing

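No paired analysis was possible because each group had 1 sample, and for the same reason no sample could be left out. The members' values kept their direction under the 7 alternatives, of which only setting the median change to 0 alters a change. Of 141 member values under an alternative, 132 kept their side of the threshold and 9 were no longer called, and those 9 are Orai2. The fold minimums, an adjusted p under 0.01 and the Benjamini-Yekutieli adjustment only tighten the rule. Values not called could not change sides under them, so the 132 does not measure stability. The number of members called fell from 1 to 0 at 5 weeks of UV with a fold minimum of 2 or 1.5, at an adjusted p under 0.01 and under the Benjamini-Yekutieli adjustment. It fell from 1 to 0 in the clone with a fold minimum of 2 or 1.5. For the clone against 2 weeks of UV it fell from 1 to 0 with a fold minimum of 2, at an adjusted p under 0.01 and under Benjamini-Yekutieli. Apart from the fold minimums, the adjusted p of Orai2 ranged from 0.0223 to 0.336 at 5 weeks and from 7.57e-05 to 0.00142 in the clone. It ranged from 0.00684 to 0.102 for the clone against 2 weeks. With the median change set to 0, the uncalled values of Atp2c1 at 5 weeks (0.0044) and of Surf4 between the UV times (-0.0079) changed sign. Over the pathway lists, the calls at 2 weeks went from 3 higher and 2 lower to none with either fold minimum, and at 5 weeks from 2 higher and 3 lower to 1 and 0 with a fold minimum of 2. Without levels or replicates, neither depth nor the spread between cultures can be judged.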
